A study of Arabidopsis thaliana with 8 samples.

Results

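The IQ67-domain (IQD) genes of Arabidopsis thaliana form a numbered family, IQD1 to IQD33, and all 33 loci were present among the 25665 loci on the array. The family is complete by name. It was nevertheless selected on measured values, with the differences between MYB87-SRDX and wild type on these arrays already known, so the counts, differences and adjusted p-values below are descriptions and give no independent support. Of the 33 genes, 32 were tested among 20336 loci, because the signal of IQD27 stayed near background. IQD proteins are specific to plants. They carry a domain of calmodulin-binding IQ motifs and act as scaffolds that bring calcium sensors to microtubules, the plasma membrane or the nucleus. Members studied so far position microtubules during wall deposition, cell shape formation and the choice of the division plane.

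Total RNA of whole 2-week-old seedlings of the Columbia-0 ecotype was hybridised to 8 one-colour Agilent arrays, 4 of 35S:MYB87-SRDX plants and 4 of wild type. MYB87 belongs to the R2R3 class of MYB transcription factors, SRDX is a repressor motif that turns a transcriptional activator into a repressor, and the 35S promoter is active in most plant tissues. The labels describe each sample as 5 seedlings of the T2 generation, name no number of transgenic lines, and do not say that samples of a group came from separate cultures. The p-values therefore rest on the scatter among these samples, part of which may be technical. Both groups grew on MS agar with 1% sucrose, in 16 h of light and 8 h of dark at 23 °C. Hygromycin was in the medium of the MYB87-SRDX seedlings but not in that of wild type. All MYB87-SRDX arrays lay on one slide and all wild-type arrays on another, so genotype, hygromycin and slide cannot be told apart. No group overexpressed MYB87 without SRDX. In whole seedlings, fewer cells of a type and less RNA per cell cannot be told apart either.

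The transgene was visible on every array labelled for it. MYB87 (AT4G37780) stood at 5.75, 5.52, 5.58 and 2.53 on MYB87-SRDX replicates 1 to 4, against -5.48, -7.20, -7.44 and -7.08 on the wild-type replicates, where it was well above background on 2 arrays. These values, like all levels below, are log2 signal relative to the array's own 75th percentile. MYB87-SRDX replicate 4 carried less of the transcript than the other 3. The 75th percentile itself was a signal of 1539 to 1908 on the MYB87-SRDX arrays and 1602 to 2055 on the wild-type arrays, and 63.1% to 65.5% of spots were well above background. All 14 green shoot markers were well above background on every array, and 15 or 16 of 16 root markers were.

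The IQD family was lower on the MYB87-SRDX arrays more often than higher. By limma with Benjamini-Hochberg adjustment over all loci and a threshold of 0.05, 11 of the 32 tested members fell, 1 rose and 20 did not pass. Falls made up 34.4% of the tested members and rises 3.12%. Over all loci tested, 12.5% fell and 14.9% rose. At an unadjusted p below 0.05 there were 15 of 32 members in either direction, a share near that of all loci, 41.2%. The log2 difference, MYB87-SRDX minus wild type, was negative for 25 of 32 members (78.1%), compared with 48.5% of all loci. Its median was -0.24 over the family and 0.01 over all loci. Because the family was chosen with this contrast known, nothing is read from these shares. IQD10 was the single member that fell at least 2-fold on the scaled processed signal. Without wild-type replicate 2 the number of falls was 6, or 18.75% of members, while 6.76% of all loci fell.

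**Figure D1:**
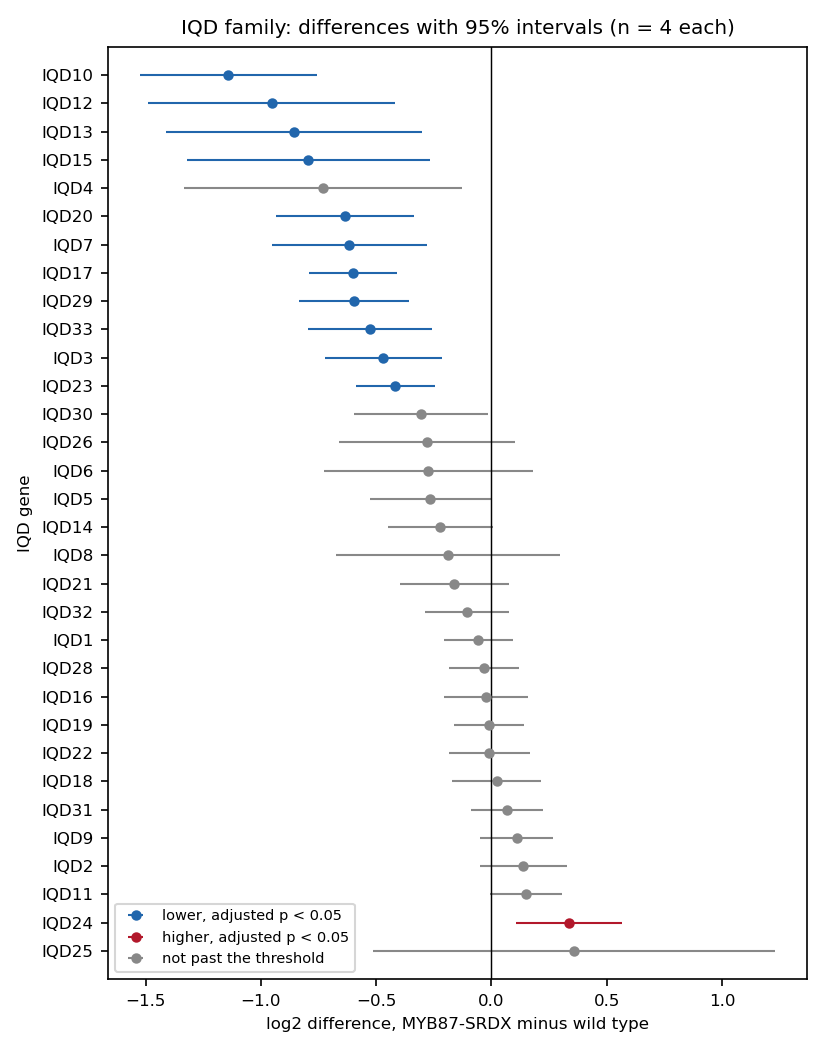
Log2 difference, MYB87-SRDX minus wild type, on the horizontal axis for each of the 32 tested IQD genes, with 95% intervals of the limma fit (n = 4 arrays each). Blue points are the 11 genes that fell, the red point is IQD24, which rose, and grey points did not pass the threshold; the values run from -1.14 for IQD10 to 0.36 for IQD25.

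On 10 of the tested members all 4 MYB87-SRDX arrays lay below all 4 wild-type arrays, and all 10 were among the falls. The corresponding share of all loci was 13.1%. For 2 members, IQD24 and IQD11, all MYB87-SRDX arrays lay above the wild-type arrays, which held for 17.6% of all loci. In the remaining 20 members the groups overlapped. The family's mean deviation from each gene's 8-array mean was -0.14, -0.16, -0.17 and -0.10 on MYB87-SRDX replicates 1 to 4, against 0.07, 0.22, 0.14 and 0.14 on the wild-type replicates. Each MYB87-SRDX array was thus below each wild-type array on this mean, by modest amounts. On the family's summed linear level the groups overlapped, at 63.6, 61.7, 59.5 and 61.0 on the MYB87-SRDX arrays and 60.8, 63.6, 65.3 and 64.3 on the wild-type arrays.

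The members known from wall patterning and secondary wall work come first. IQD13 (AT3G59690) is a microtubule scaffold that shapes the pits of metaxylem vessels. It stood at -1.36, -1.34, -1.83 and -1.03 on the MYB87-SRDX arrays and at -0.01, -0.36, -0.80 and -0.97 on the wild-type arrays. The groups did not overlap, but MYB87-SRDX replicate 4 and wild-type replicate 4 were close together. IQD13 fell by 0.86 ± 0.24 (SE) on the log2 scale, with an adjusted p of 0.0338. The call was lost, at an adjusted p of 0.0668 to 0.0903, without wild-type replicate 2 and without MYB87-SRDX replicate 1, 2 or 3.

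IQD10 (AT3G15050), whose relative in poplar is linked to secondary walls, had the lowest log2 difference of the family on the scaled processed signal. Its levels were -6.05, -5.92, -5.91 and -5.55 on the MYB87-SRDX arrays and -4.33, -4.64, -4.99 and -4.91 on the wild-type arrays. All MYB87-SRDX values lay clearly below the wild-type values. The log2 difference was -1.14 ± 0.17 (SE), which is 45.3% of the wild-type level, with an adjusted p of 0.00373. IQD10 is dim, and its lowest processed signal was 23.3 on a MYB87-SRDX array, where the dimmest probe called well above background on any array had 11.5. Normexp background correction was run with local backgrounds flagged as outliers replaced by the array's median background in the fit. Spots with such a background were then left out, and this setting also added an offset of 50. There the difference of IQD10 was -0.43, and with an offset of 50 on the processed signal alone it was -0.48, both past the threshold. Both settings carry the offset, so the part of background correction alone cannot be read from them. IQD10 was no longer the lowest under either setting, where IQD13 was at -0.83 and -0.81.

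IQD15 (AT3G49380) and IQD4 (AT2G26410) had a similar course over the arrays. IQD15 stood at -5.43, -5.59, -5.66 and -4.93 on the MYB87-SRDX arrays and at -4.09, -4.49, -4.96 and -4.88 on the wild-type arrays. Its groups overlapped, because MYB87-SRDX replicate 4 was above wild-type replicate 3. IQD15 fell by 0.80 ± 0.23 (SE) on the log2 scale with an adjusted p of 0.0361. The call was lost at 0.0514 to 0.0927 without wild-type replicate 1 or 2 and without MYB87-SRDX replicate 1, 2 or 3, and at 0.0527 with no filter on dim probes. It was also lost with the same background correction, at a log2 difference of -0.29 and an adjusted p of 0.166, and with the offset of 50, at -0.36 and 0.089. IQD4 was the member nearest to the threshold among those that did not pass. Its levels were -5.48, -5.68, -6.45 and -5.90 on the MYB87-SRDX arrays and -4.71, -4.94, -5.68 and -5.26 on the wild-type arrays. Its adjusted p was 0.0708, for a log2 difference of -0.73 ± 0.26 (SE), while the largest adjusted p inside the threshold was 0.0406, for IQD24. IQD4 passed with quantile scaling, at an adjusted p of 0.0412, and without wild-type replicate 3, at 0.0428. Its log2 difference was -0.19 with the same background correction and -0.25 with the offset of 50, neither past the threshold. The median local background was 52.5 to 54 on the MYB87-SRDX arrays and 63 to 64.5 on the wild-type arrays, and its part in the differences of IQD4, IQD10, IQD15 and IQD20 was not tested.

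**Figure D2:**
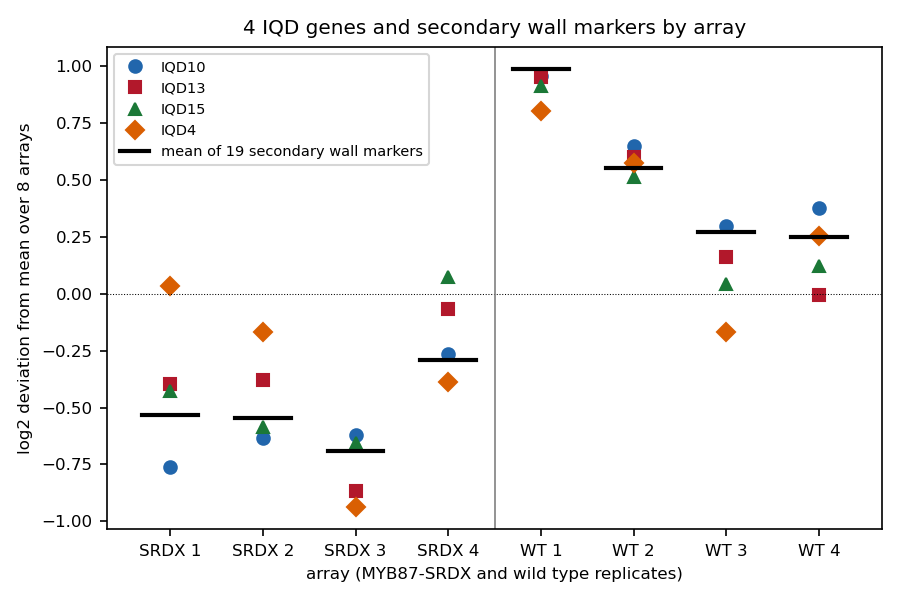
Log2 deviation of IQD10, IQD13, IQD15 and IQD4 from their own 8-array means on each MYB87-SRDX (left) and wild-type (right) array, with the mean deviation of 19 secondary wall markers as black bars. Wild-type replicate 1 is highest for the 4 genes and the markers, and MYB87-SRDX replicate 3 is lowest for IQD13, IQD15, IQD4 and the markers.

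In these 4 genes, as in IQD16, IQD20 and IQD23, wild-type replicate 1 was the highest array, 7 of the 32 tested members in all. The share of all loci with this array highest was not counted. The 4 were set side by side after their values were seen, and no test was made on them. Their mean deviation was -0.39, -0.44, -0.77 and -0.16 on the MYB87-SRDX arrays and 0.91, 0.58, 0.09 and 0.19 on the wild-type arrays. The mean of markers of secondary wall formation was also highest on wild-type replicate 1, and it was lowest on MYB87-SRDX replicate 3. IQD20, not among the 4, shared both extremes, while IQD10 was lowest on MYB87-SRDX replicate 1. Of 19 such markers, 16 fell and none rose, with a median log2 difference of -1.04, while 12.5% of all loci fell and 14.9% rose. By limma 18 had an unadjusted p below 0.05, as had 41.2% of all loci. The number of markers that fell was 16 with quantile or median scaling and 7 with normexp as planned. The largest falls were those of IRX12, a laccase of lignifying walls, at -1.51 ± 0.19 (SE), and of GAUT12, a glycosyltransferase of xylan synthesis, at -1.43 ± 0.16. The mean deviation of the 19 markers was -0.53, -0.54, -0.69 and -0.29 on the MYB87-SRDX arrays and 0.99, 0.55, 0.27 and 0.25 on the wild-type arrays. Their summed linear level relative to the 75th percentile ranged from 8.11 to 10.05 on the MYB87-SRDX arrays and from 15.01 to 23.4 on the wild-type arrays, and every marker was well above background on every array. Root markers also varied, with a mean deviation of 0.07, 0.25, -0.49 and -0.09 on the MYB87-SRDX arrays and 0.64, 0.39, -0.55 and -0.21 on the wild-type arrays. Of 16 root markers 1 fell, SHR, a regulator of root radial patterning, at -0.41 ± 0.07 (SE), and none rose. The call of SHR was lost with each array scaled to its median and with the authors' deposited table unscaled, and 2 root markers fell without wild-type replicate 1 or MYB87-SRDX replicate 4. The summed level of the root markers ranged from 22.1 to 34.1 on the MYB87-SRDX arrays and from 24.1 to 50.1 on the wild-type arrays. All 9 phloem markers fell, or 5 with each array scaled to its median. Their median was -0.63, and their summed level ranged from 11.7 to 16.1 on the MYB87-SRDX arrays and from 20.2 to 25.5 on the wild-type arrays. The largest of these falls were those of GLN1;4, a glutamine synthetase, at -1.63 ± 0.16, and SULTR2;1, a sulfate transporter of the vasculature, at -1.57 ± 0.20. The part of these cell types in the IQD differences was not tested.

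Around IQD13, 8 symbols of regulators of pit formation in the secondary wall were listed. Of these, 4 were matched and tested, and 2 fell, while 12.5% of all loci fell. MIDD1, which links a ROP GTPase domain to microtubule loss at pits, stood at -2.42, -2.42, -2.31 and -2.43 on the MYB87-SRDX arrays and at -1.70, -1.80, -1.78 and -1.62 on the wild-type arrays. It fell by 0.67 ± 0.07 (SE) on the log2 scale, with an adjusted p of 0.00128. ROPGEF4, an activator of that GTPase, had a log2 difference of -0.62 ± 0.19 and an adjusted p of 0.0437. The count of falls was 1 without wild-type replicate 2 and without each MYB87-SRDX replicate in turn, and 1 with quantile scaling. The GTPase ROP11 and its inactivator ROPGAP3 did not pass, at 0.19 ± 0.06 and -0.10 ± 0.12.

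The members of the division plane, IQD6, IQD7 and IQD8, bind the POK kinesins that mark the cortical division site. IQD7 (AT1G17480) stood at -3.09, -2.74, -2.46 and -2.73 on the MYB87-SRDX arrays and at -2.40, -1.96, -2.11 and -2.10 on the wild-type arrays. The groups did not overlap, although MYB87-SRDX replicate 3 came near wild-type replicate 1. IQD7 fell by 0.62 ± 0.15 (SE) on the log2 scale with an adjusted p of 0.0188, and the call was lost at 0.0574 without wild-type replicate 2. IQD6 (AT2G26180) did not pass, at a log2 difference of -0.27 ± 0.20 and an adjusted p of 0.324. IQD8 (AT1G72670) was at -0.19 ± 0.21 with an adjusted p of 0.528. Levels of IQD8 were -1.11, -1.39, -0.55 and -1.14 on the MYB87-SRDX arrays and -1.26, -0.71, -0.92 and -0.54 on the wild-type arrays. In IQD6, IQD7 and IQD8 alike, replicate 3 was the highest MYB87-SRDX array and replicate 1 the lowest wild-type array, an order found in 12 of the 32 tested members. How often all loci show this order was not counted, so nothing is read from its number in the family.

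Markers of dividing cells shared that order of arrays. Their mean deviation was -0.45, -0.48, 0.27 and -0.35 on the MYB87-SRDX arrays and -0.02, 0.45, 0.20 and 0.39 on the wild-type arrays. Summed levels of the 14 markers ranged from 6.28 to 10.99 on the MYB87-SRDX arrays and from 8.16 to 11.7 on the wild-type arrays, all well above background. In this list 4 markers fell and none rose, with a median of -0.52, while 12.5% of all loci fell and 14.9% rose. The mitotic cyclin CYCB1;4 was at -0.95 ± 0.18 (SE) and the mitotic kinase CDKB2;1 at -0.86 ± 0.16. The count was 12 without MYB87-SRDX replicate 3, 7 without wild-type replicate 1, and 2 without any other single array, as with quantile or median scaling. The part of dividing cells in the values of IQD6, IQD7 and IQD8 was not tested. Of 10 division plane proteins, among them the POK kinesins and the TON1 and TRM proteins of the preprophase band, none passed by limma. An unadjusted p below 0.05 was found for 4 of the 10, a share near that of all loci, 41.2%, and the median was -0.04.

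IQD5, IQD16, IQD1 and IQD9, further members with a studied role, did not pass and are given together for that reason. IQD5 (AT3G22190), which shapes leaf pavement cells through microtubules and cellulose, had a log2 difference of -0.27 ± 0.11 and an adjusted p of 0.117. Without wild-type replicate 1 IQD5 passed as lower, at -0.35 and an adjusted p of 0.0421. IQD16 (AT4G10640) acts with the severing enzyme katanin. Its levels were -3.79, -3.74, -3.80 and -3.74 on the MYB87-SRDX arrays and -3.61, -3.76, -3.93 and -3.67 on the wild-type arrays. The groups of IQD16 overlapped and the 95% interval of the log2 difference ran from -0.21 to 0.16. IQD1 (AT3G09710), known from glucosinolate control and defence, recruits calmodulin and kinesin light chain-related protein to microtubules. It stood at -1.83, -1.66, -1.79 and -1.82 on the MYB87-SRDX arrays and at -1.80, -1.67, -1.70 and -1.71 on the wild-type arrays, with a 95% interval of the log2 difference from -0.21 to 0.09. IQD9 (AT2G33990), which acts in seed coat mucilage, was at 0.11 ± 0.07 with an adjusted p of 0.262.

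IQD11 and IQD12 are usually grouped with SUN, the tomato family member that elongates fruit, and they differed from each other here. IQD12 (AT5G03960) stood at -3.19, -3.15, -4.14 and -3.05 on the MYB87-SRDX arrays and at -2.34, -2.34, -2.41 and -2.63 on the wild-type arrays. The groups did not overlap, and MYB87-SRDX replicate 3 lay far below the other 3. IQD12 fell by 0.95 ± 0.23 (SE) on the log2 scale with an adjusted p of 0.0211, which became 0.0601 without wild-type replicate 2. IQD11 (AT5G13460) stood at 0.44, 0.40, 0.48 and 0.34 on the MYB87-SRDX arrays and at 0.14, 0.31, 0.32 and 0.30 on the wild-type arrays. Its groups did not overlap, but the difference of 0.15 ± 0.07 did not pass, with an adjusted p of 0.135. Whether the 2 genes differ in response was not tested.

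**Figure D3:**
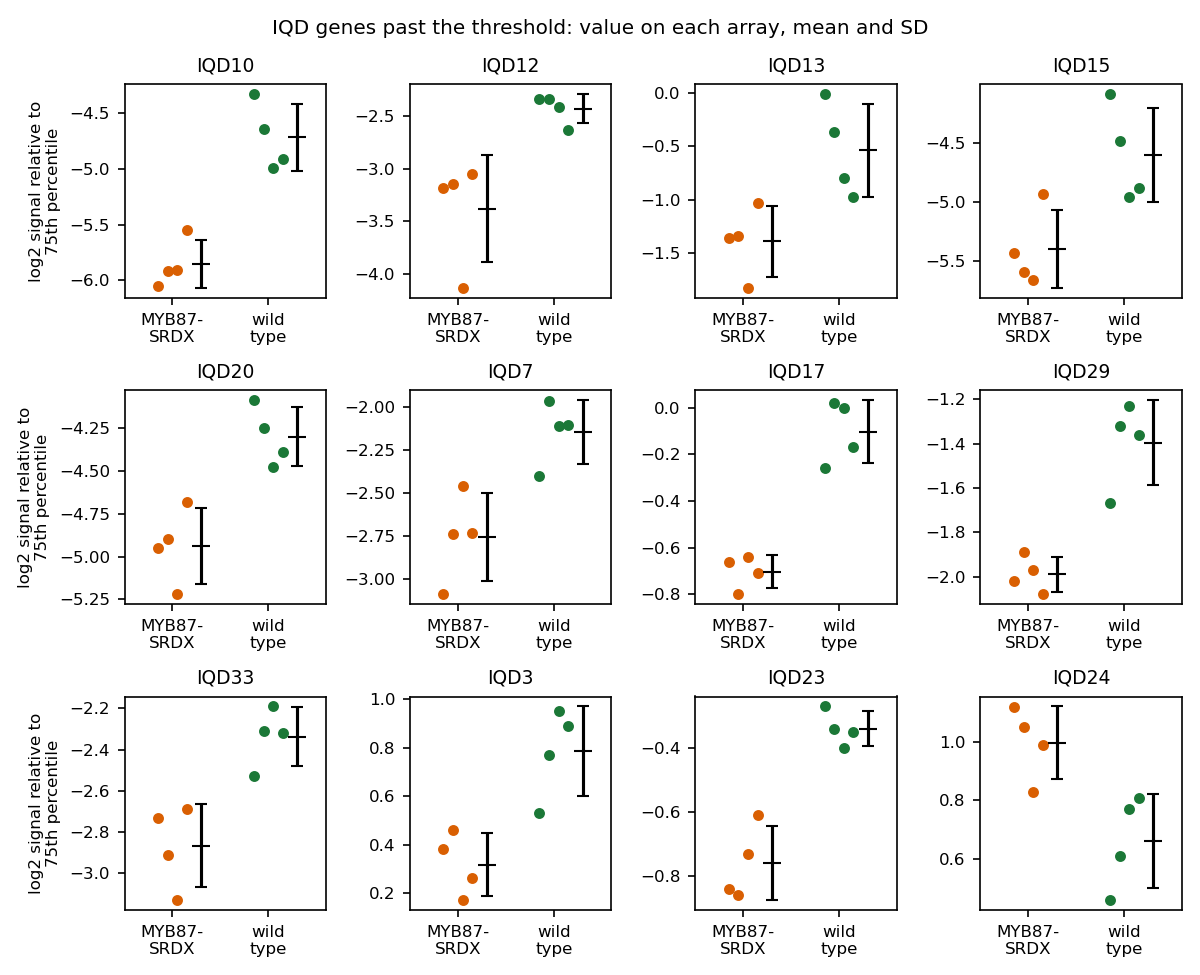
Level of each of the 12 IQD genes past the threshold, as log2 signal relative to the array's 75th percentile, with 1 point per array, MYB87-SRDX left and wild type right, and the mean with SD (n = 4 each) as a black bar. The vertical axes differ between genes, and the groups overlap in IQD15 alone.

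The other members that fell have no role stated here. IQD17 (AT4G00820) stood at -0.66, -0.80, -0.64 and -0.71 on the MYB87-SRDX arrays and at -0.26, 0.02, 0.00 and -0.17 on the wild-type arrays. The gap between the groups was wide against the spread within each of them. IQD17 fell by 0.60 ± 0.08 (SE) on the log2 scale, with an adjusted p of 0.00314, the lowest of the family, and it kept its call under all 21 alternatives run. IQD29 (AT2G02790) stood at -2.02, -1.89, -1.97 and -2.08 on the MYB87-SRDX arrays and at -1.67, -1.32, -1.23 and -1.36 on the wild-type arrays. It fell by 0.60 ± 0.10, with an adjusted p of 0.00653 and no overlap. IQD23 (AT5G62070) stood at -0.84, -0.86, -0.73 and -0.61 on the MYB87-SRDX arrays and at -0.27, -0.34, -0.40 and -0.35 on the wild-type arrays. IQD23 fell by 0.42 ± 0.07 on the log2 scale, the smallest of the 11 falls, with an adjusted p of 0.00697 and no overlap.

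IQD20 (AT3G51380) stood at -4.95, -4.90, -5.22 and -4.68 on the MYB87-SRDX arrays and at -4.09, -4.25, -4.48 and -4.39 on the wild-type arrays. The groups were separate. IQD20 fell by 0.63 ± 0.13 (SE) on the log2 scale, at an adjusted p of 0.0113. With the background correction named for IQD10 the difference was -0.37, still past the threshold. IQD33 (AT5G35670) stood at -2.73, -2.91, -3.13 and -2.69 on the MYB87-SRDX arrays and at -2.53, -2.31, -2.19 and -2.32 on the wild-type arrays. It fell by 0.53 ± 0.12 with an adjusted p of 0.0151 and no overlap. IQD3 (AT3G52290) stood at 0.38, 0.46, 0.17 and 0.26 on the MYB87-SRDX arrays and at 0.53, 0.77, 0.95 and 0.89 on the wild-type arrays. The groups were close at MYB87-SRDX replicate 2 and wild-type replicate 1 but did not overlap. IQD3 fell by 0.47 ± 0.11 with an adjusted p of 0.0183, which became 0.0507 without wild-type replicate 2. With each array scaled to its median, IQD3, IQD7 and IQD33 no longer passed, at adjusted p-values of 0.126, 0.0613 and 0.076. IQD33 was also lost with quantile scaling, at 0.074. With the authors' deposited table unscaled, IQD3, IQD7, IQD13, IQD23, IQD29 and IQD33 did not pass, at 0.0553 to 0.109.

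IQD24 (AT5G07240) was the single member that rose. Its levels were 1.12, 1.05, 0.83 and 0.99 on the MYB87-SRDX arrays and 0.46, 0.61, 0.77 and 0.81 on the wild-type arrays. The lowest MYB87-SRDX array was only just above the highest wild-type array. IQD24 rose by 0.34 ± 0.10 (SE) on the log2 scale, at an adjusted p of 0.0406. The call was lost in 12 of 21 alternatives, among them leaving out wild-type replicate 1, 2 or 3 or MYB87-SRDX replicate 1, 2 or 4, with adjusted p-values of 0.0554 to 0.104.

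**Figure D4:**
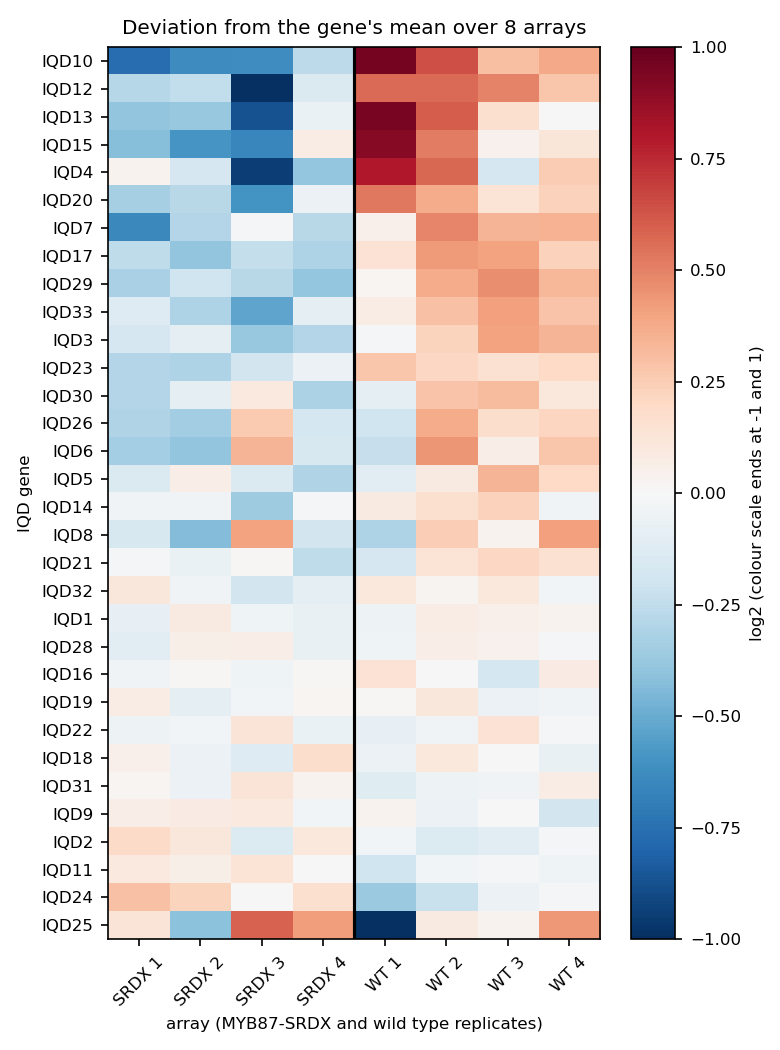
Log2 deviation of each of the 32 tested IQD genes from its own mean over 8 arrays, with genes in rows from the largest fall at the top, MYB87-SRDX arrays in the left 4 columns and wild-type arrays in the right 4. Blue is below and red above the gene's mean, and colours stop at -1 and 1; the upper rows are mostly blue on the left and red on the right, and most lower rows are pale, with IQD8 and IQD25 as exceptions.

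The remaining members that did not pass had log2 differences between -0.31 for IQD30 and 0.36 for IQD25. IQD25 (AT4G29150) was the most variable, at -2.25, -2.79, -1.79 and -1.96 on the MYB87-SRDX arrays and -3.65, -2.29, -2.34 and -1.94 on the wild-type arrays. Its low value on wild-type replicate 1 left a 95% interval from -0.51 to 1.23, so no change could be resolved in either direction. IQD30, IQD26, IQD14, IQD21 and IQD32 had negative differences of -0.31, -0.28, -0.22, -0.16 and -0.11. By limma IQD30 passed as lower with array weights, at an adjusted p of 0.0205, and without wild-type replicate 1, at 0.0459. IQD26 passed as lower with array weights, at 0.0344. IQD28, IQD19, IQD22, IQD18 and IQD31 lay between -0.03 and 0.07, and IQD2 was at 0.14. With normexp with flagged backgrounds replaced, IQD2 passed as higher by limma, at an adjusted p of 0.043. Of the 20 members that did not pass, 13 had a 95% interval within ±0.5 on the log2 scale and 7 within ±0.25. IQD27 (AT1G51960) was not well above background on any of the 8 arrays, so no difference is given for it. Each member was read by 1 probe, and no spot of a member was missing or saturated.

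The partners of IQD scaffolds were read from related lists, also chosen with results known. Calmodulin is the calcium sensor that binds the IQ motif. None of the 7 calmodulin genes passed by limma, and the median log2 difference was 0.13. An unadjusted p below 0.05 was found for 2 of the 7, while 41.2% of all loci had one. The count of rises was 1 without wild-type replicate 1, 3 or 4. Of 50 listed symbols of calmodulin-like genes, 13 could be matched. Of the 12 tested, 3 rose and none fell, with a median of 0.25, while 14.9% of all loci rose and 12.5% fell. CML12, the touch-induced gene TCH3, stood at 1.75, 1.98, 1.66 and 1.83 on the MYB87-SRDX arrays and at 1.19, 0.91, 0.33 and 0.84 on the wild-type arrays. CML12 rose by 0.99 ± 0.17 (SE) on the log2 scale, at an adjusted p of 0.00675. CML24, the touch-induced gene TCH2, rose by 0.70 ± 0.10, and CML9 was the third, while the count was 5 without wild-type replicate 1. The kinesin light chain-related genes KLCR1, KLCR2 and KLCR3, whose proteins bind IQD1, had differences of 0.14 ± 0.10, 0.31 ± 0.14 and 0.04 ± 0.08. None passed by limma, none had an unadjusted p below 0.05, and 1 rose without wild-type replicate 1.

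**Figure D5:**
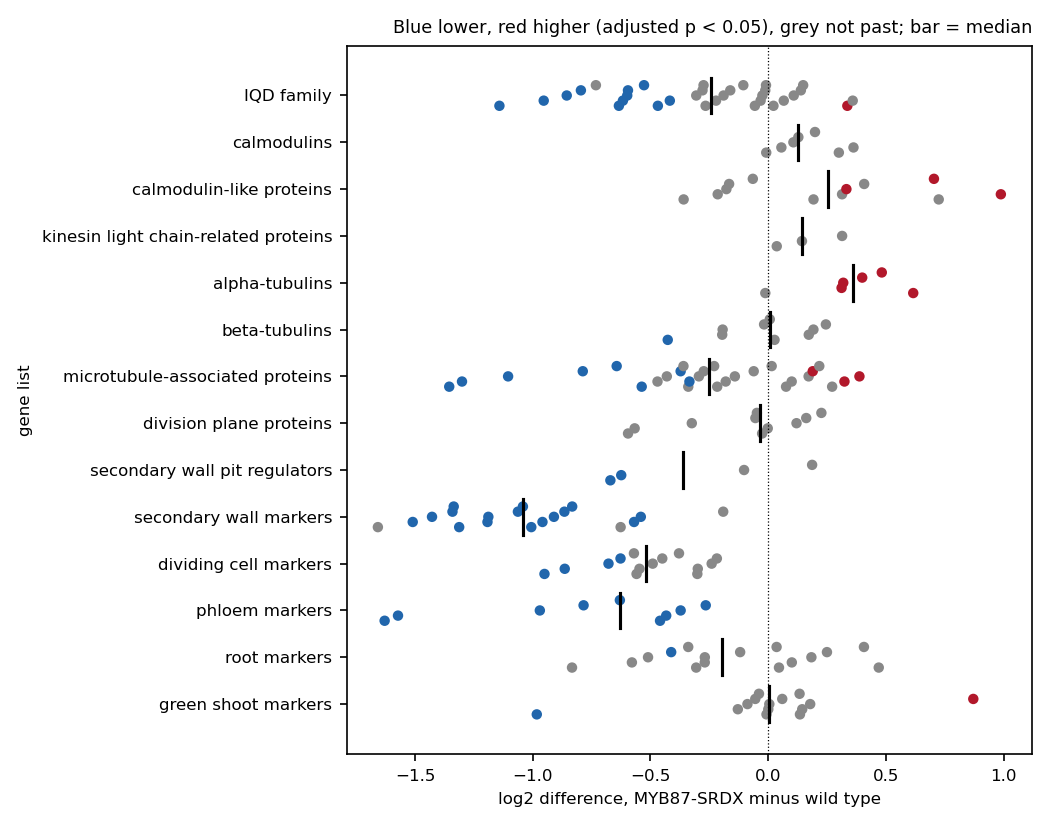
Log2 difference, MYB87-SRDX minus wild type, for each tested gene of the IQD family and 13 related lists, with 1 point per gene and a bar at each list's median. The IQD median is -0.24, the alpha-tubulin median 0.36 and the secondary wall marker median -1.04.

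Microtubules are the tracks on which most IQD proteins lie. Of 6 alpha-tubulin genes, 5 rose and none fell, with a median of 0.36, while 14.9% of all loci rose and 12.5% fell. TUA6 rose by 0.62 ± 0.11 (SE) and TUA3 by 0.48 ± 0.09, with adjusted p-values of 0.00699 and 0.00889. The count was 3 without wild-type replicate 2 or 3 and without MYB87-SRDX replicate 1, 3 or 4. It was 3 with quantile scaling, 1 with the authors' deposited table unscaled and 0 with normexp as planned. Tubulin genes are similar in sequence and their probes may share transcripts, which could not be examined here. Of 9 beta-tubulin genes none rose and TUB3 fell, at -0.43 ± 0.13 with an adjusted p of 0.0416. The list's median was 0.01, and the call of TUB3 was lost without any one of wild-type replicates 2, 3 and 4 or MYB87-SRDX replicates 1, 2 and 4, and with median scaling.

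Of 28 microtubule-associated proteins tested, 8 fell and 3 rose, with a median of -0.25, while 12.5% of all loci fell and 14.9% rose. An unadjusted p below 0.05 was found by limma for 16 of the 28, against 41.2% of all loci. SP1L5, a SPIRAL1-like protein, had the largest fall at -1.35 ± 0.41 (SE), with an adjusted p of 0.0421 and overlapping groups. MAP70-5, which lines wall thickenings in developing xylem, was at -1.30 ± 0.28 with an adjusted p of 0.0141. SPR1 and MDP25 rose by 0.39 ± 0.09 and 0.32 ± 0.10. The number of falls was 5 without wild-type replicate 2 or MYB87-SRDX replicate 1, 4 with median scaling, 4 with the authors' deposited table unscaled and 2 with normexp as planned. The number of rises was 0 or 1 without wild-type replicate 2 or 3 or MYB87-SRDX replicate 1, 2 or 3, and 0 with quantile scaling, the unscaled table or normexp as planned. KTN1, the katanin subunit that severs microtubules and acts with IQD16, was chosen for naming after its values were seen. It stood at 0.41, 0.39, 0.40 and 0.25 on the MYB87-SRDX arrays and at 1.11, 1.15, 1.18 and 1.17 on the wild-type arrays. The log2 difference of KTN1 was -0.79 ± 0.06 (SE), with an adjusted p of 0.000662, while IQD16 was at -0.02 ± 0.08.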

How the data were processed

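The authors deposited the scanner table of each array, holding a linear intensity for each spot. The submitters' processing notes name Agilent Feature Extraction 9.1.3.1. The members and the related lists were chosen with earlier results of these data known. Members were found by locus among the probe annotations. List genes were looked up in the TAIR10.1 gene table by symbol (132) or synonym (35), 59 had no match, 1 was ambiguous and 1 was left out as another gene. Symbols without a match were not looked up by locus, so their genes may be on the array. The sources used here name no genome build for the array, so no coordinates are printed.

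Log2 processed signal was reduced by each array's 75th percentile (37685 spots, controls left out), without outlier-flagged spots (3 to 44 per array). Repeated spots were averaged. Probes were kept if at least 3 arrays of either group had them well above background, and the brightest stood for a locus. Differences were tested with limma 3.58.1 (lmFit, eBayes; group only) in R 4.3.3 with Benjamini-Hochberg adjustment, threshold 0.05, after the steps had been tested on simulated data. Figures used matplotlib 3.10.9. The number of arrays limits the precision. Correlations across genes, which are not replicates, were 0.989 to 0.995 within MYB87-SRDX, 0.975 to 0.994 within wild type and 0.961 to 0.983 between them. No slide effect could be fitted, since each group lay on its own slide.

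The rule for genes to name took MYB87, all 33 members and, from each list, the 2 largest changes past the threshold in either direction. KLCR1, KLCR2, KLCR3, ROP11, ROPGAP3, CML9 and KTN1 fall outside it and were named after their values were seen. The authors' deposited value table, whose scale is unstated, equals the processed signal intensity times a constant, 0.00117 on the MYB87-SRDX slide and 0.00109 on the wild-type slide. It is linear, not log2 or ratio values, and not centred. Its column medians were 0.108, 0.133, 0.114 and 0.114 for MYB87-SRDX and 0.129, 0.150, 0.123 and 0.105 for wild type. The reason for unequal constants is not stated. Alternatives covered scaling, background correction, filters, probe choice, the variance model, array weights, a replicate block and leaving out each array.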

Additional observations from a re-analysis of the deposited data

Results flagged for a closer look

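In the IQD family 3 single values stood far from the other arrays of their group by Dixon's criterion. They came from 64 groups of 4 arrays, and chance gives about 1 in 20. IQD12 on MYB87-SRDX replicate 3 was at -4.14, while the other MYB87-SRDX arrays lay between -3.19 and -3.05. IQD14 on MYB87-SRDX replicate 3 was at 2.69, with the others between 3.01 and 3.03. IQD11 on wild-type replicate 1 was at 0.14, with the others between 0.30 and 0.32.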

How the results depend on the processing

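Under 21 alternatives IQD17 kept its call, and the family's median log2 difference was negative in all of them. The number of members that fell, 11 as reported, was 1 with normexp, or 3.1% of members against 2.3% of all loci. With the authors' table unscaled it was 5, or 15.6% against 5.4%, and with median scaling 8, or 25% against 6.7%. Array weights gave the most, 13, or 40.6% against 17.6%. The number was 6 to 12 when single arrays were left out, lowest without wild-type replicate 2, at 18.75% against 6.76%. The number that rose, 1 as reported, was 0 with quantile scaling, median scaling, normexp, the authors' table unscaled, no filter and the replicate block, 2 with normexp with flagged backgrounds replaced, and 0 to 1 without single arrays. Over all loci, 3031 rose and 2550 fell as reported. The rises were 764 with normexp, 1102 with the unscaled table, 1772 with the replicate block and 1544 to 3053 without single arrays. The falls were 1371 with median scaling, 467 with normexp, 1095 with the unscaled table and 1366 to 2907 without single arrays. Rises made up 54.3% of all calls as reported and 65.8% with median scaling, which moved the median of all loci to 0.10. With normexp, which also added an offset of 50, the family median was -0.041. There IQD10, IQD15 and IQD20 changed sign to 0.14, 0.25 and 0.15, none past the threshold. On MYB87-SRDX replicate 4 a spot had a signal minus local background of -27513, and the fitted background mean there was -526, against 9.01 to 10.6 on the other MYB87-SRDX arrays and -5.42 to -2.01 on the wild-type arrays. Replacing flagged backgrounds by the array's median in the fit was an alternative chosen after seeing the data, like the unscaled table. It left out the flagged spots afterwards, kept the offset of 50, and gave 10 falls, all among the 11. Same-numbered arrays had deviations correlated at 0.09, 0.09, 0.16 and -0.22. Wild-type replicates 2 and 3 correlated best with the MYB87-SRDX array of their own number, and replicates 1 and 4 did not. With 4 arrays per group, this check cannot decide whether same-numbered samples shared a culture or batch. The replicate block gave 8 falls, 7 of them among the 11, and IQD4 at an adjusted p of 0.0113. Other causes were not tested. Signal over background limits dim members such as IQD4, whose lowest processed signal was 18.9.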

Other observations

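Outside the family, 4 of 12 listed symbols of IQ-motif genes were matched and tested. By limma CAMTA2, a calmodulin-binding transcription activator, fell by 0.30 ± 0.09 (SE) on the log2 scale with an adjusted p of 0.0401. The call of CAMTA2 was lost without any one of wild-type replicates 2 and 3 or the 4 MYB87-SRDX replicates, and with quantile or median scaling. Neither of the 2 tested linkers between cellulose synthase and microtubules passed by limma, and none had an unadjusted p below 0.05. Of 14 green shoot markers 1 rose, LHCB2.1, and 1 fell, CAB1, both light-harvesting proteins with close relatives, at 0.87 ± 0.22 and -0.98 ± 0.15, and the list's median was 0.00. The call of LHCB2.1 was lost without wild-type replicate 2 or 3 or MYB87-SRDX replicate 1.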
